A study of Mus musculus with 7 samples.

Results

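Glycolysis and hypoxia-induced genes were examined in transplanted tumours of the mouse mammary tumour lines Met1 and DB7. The gene group holds 32 genes listed by function: enzymes of glycolysis, regulators of its rate and of the fate of pyruvate, oxygen sensors, and other known targets of the hypoxia-inducible factors (HIF). All probe sets to which the platform annotation gives exactly 1 of these symbols were taken, which gave 53 of the 22690 probe sets on the array, for 28 of the 32 genes. Gpi1, Pfkfb4, Eno1 and Ankrd37 had no such probe set and were not analysed here. Of the 53, 3 are the array maker's Gapdh control probe sets.

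Both lines come from mammary tumours of mice that carry the polyoma virus middle T oncogene. Met1 is known to metastasise readily and DB7, which carries an altered form of middle T, seldom does. The comparison asks how the genes differed between tumours of the lines, with 3 Met1 arrays and 4 DB7 arrays of total RNA from snap-frozen tumours. Each group is a single transplanted line, the sources used here do not give the hosts' strain or age, and the series' design text speaks of outcross tumours where the sample labels, which were followed, name these lines. The labels do not tie arrays to individual animals, so every p-value reflects only how far these samples scatter, and that scatter may be technical.

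Glycolysis splits glucose into pyruvate through a chain of cytosolic enzymes, several of which exist as isoforms encoded by separate genes. Lactate dehydrogenase turns pyruvate into lactate, and the pyruvate dehydrogenase kinases, in the mitochondria, inhibit the enzyme complex that oxidises pyruvate to acetyl-CoA. When oxygen is scarce, the prolyl hydroxylases (Egln genes) no longer mark HIF-1 alpha for destruction, and HIF binds short DNA elements near its target genes, many of which encode glycolytic enzymes. Tumours often run glycolysis at a high rate even where oxygen is present.

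Promoters of 4 genes that differed between the lines are shown because HIF is known to act through the core letters ACGTG or GCGTG. Car9 and Ldhb were higher in Met1, and Bnip3 and Hk2 were lower. Each line gives the 250 bases before the transcription start from RefSeq (GRCm38.p6), read 5′ to 3′ on the gene's strand, with matches on either strand in capitals. CACGT and CACGC are the same letters read on the other strand.
Car9, chr4:43506776-43507025, plus strand: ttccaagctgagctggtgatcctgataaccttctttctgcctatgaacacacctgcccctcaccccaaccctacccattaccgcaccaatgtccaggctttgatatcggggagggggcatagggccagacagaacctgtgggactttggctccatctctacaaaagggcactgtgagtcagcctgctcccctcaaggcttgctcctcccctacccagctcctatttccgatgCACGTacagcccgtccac
Ldhb, chr6:142507958-142508207, minus strand: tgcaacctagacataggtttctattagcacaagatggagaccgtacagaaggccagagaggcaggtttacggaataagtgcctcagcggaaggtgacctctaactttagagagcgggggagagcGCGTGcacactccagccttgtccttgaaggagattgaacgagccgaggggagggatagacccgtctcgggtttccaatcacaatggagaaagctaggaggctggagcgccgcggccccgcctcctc
Bnip3, chr7:138909507-138909756, minus strand: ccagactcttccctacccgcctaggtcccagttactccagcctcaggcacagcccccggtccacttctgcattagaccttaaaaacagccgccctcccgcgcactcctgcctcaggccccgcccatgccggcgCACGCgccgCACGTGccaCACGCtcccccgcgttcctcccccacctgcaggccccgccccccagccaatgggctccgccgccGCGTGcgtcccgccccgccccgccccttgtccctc
Hk2, chr6:82774455-82774704, minus strand: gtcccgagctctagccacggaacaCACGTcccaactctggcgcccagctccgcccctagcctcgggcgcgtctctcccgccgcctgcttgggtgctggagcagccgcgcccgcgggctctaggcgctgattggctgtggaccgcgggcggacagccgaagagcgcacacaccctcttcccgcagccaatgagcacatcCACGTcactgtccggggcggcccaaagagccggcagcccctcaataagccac
In Car9 the single match, an ACGTG on the other strand, begins 18 bases before the start. The Bnip3 window holds 5 matches, 2 of them the overlapping ACGTG readings of a single CACGTG, and has 72.4% G and C. Hk2 holds 2 ACGTG matches and Ldhb 1 GCGTG match, 126 bases before the start.

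The promoter table held 31 of the 32 genes, with 44 promoters. Either motif stood in 35 of the 44 (79.5%), against 38.6% of all 32851 promoters in the table over the same length. ACGTG stood in 43.2% of the members' promoters and 16.6% of all, and GCGTG in 56.8% and 28.2%. The members' promoters were also richer in G and C, with a median of 59.8% against 52.4%. Both directions of difference were represented: 7 of the 8 promoters of genes higher in Met1 and 10 of the 12 of genes lower in Met1 held a match. So did 10 of the 14 promoters of genes that did not pass. Only 22 of the 31 genes had 1 promoter. Windows of the same gene can overlap, as in Eno1, Aldoa and Pfkm, so the same match can count in more than 1 promoter. A match describes letters and was not tested as a binding site.

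Dim probe sets were set aside: testing required a value over the array median on 3 or more of the 7 arrays. This set aside 6 probe sets and with them the genes Eno2, Adm and P4ha2. The 3 Gapdh probe sets are bright but were left out as controls, so that 44 of the 53 probe sets and 24 of the 28 genes were tested. Each gene was represented by its brightest tested probe set, all values are log2 probe set levels, and differences are Met1 minus DB7. Met1 was higher in 4 genes and lower in 10, while 10 did not pass (limma, adjusted p under 0.05 over all 11704 probe sets tested). These are 16.7% and 41.7% of the 24, where over all 7482 tested genes 13% were higher and 17.9% lower. The members' median difference was -0.26, against -0.04 over all tested genes. Counted by probe set, 8 of 44 (18.2%) were higher and 15 (34.1%) lower, where 13.4% and 17.6% of all tested probe sets were. Without the array Met1 3, 8 of the 43 member probe sets then tested were lower. With 1 array left out, lower probe sets among all tested numbered 1266 to 2193, against 2060 with all arrays. Eno3 and Pfkfb3, both lower, passed the filter only through DB7, so the filter itself favours them. The same holds for the second Aldoc probe set, counted as higher, which passed only through Met1. The groups did not overlap in 5 genes with all Met1 arrays above and in 10 with all below, where the shares over all genes were 16.2% and 23%. In whole tumours, fewer cells of a type and less RNA per cell cannot be told apart.

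**Figure D1:**
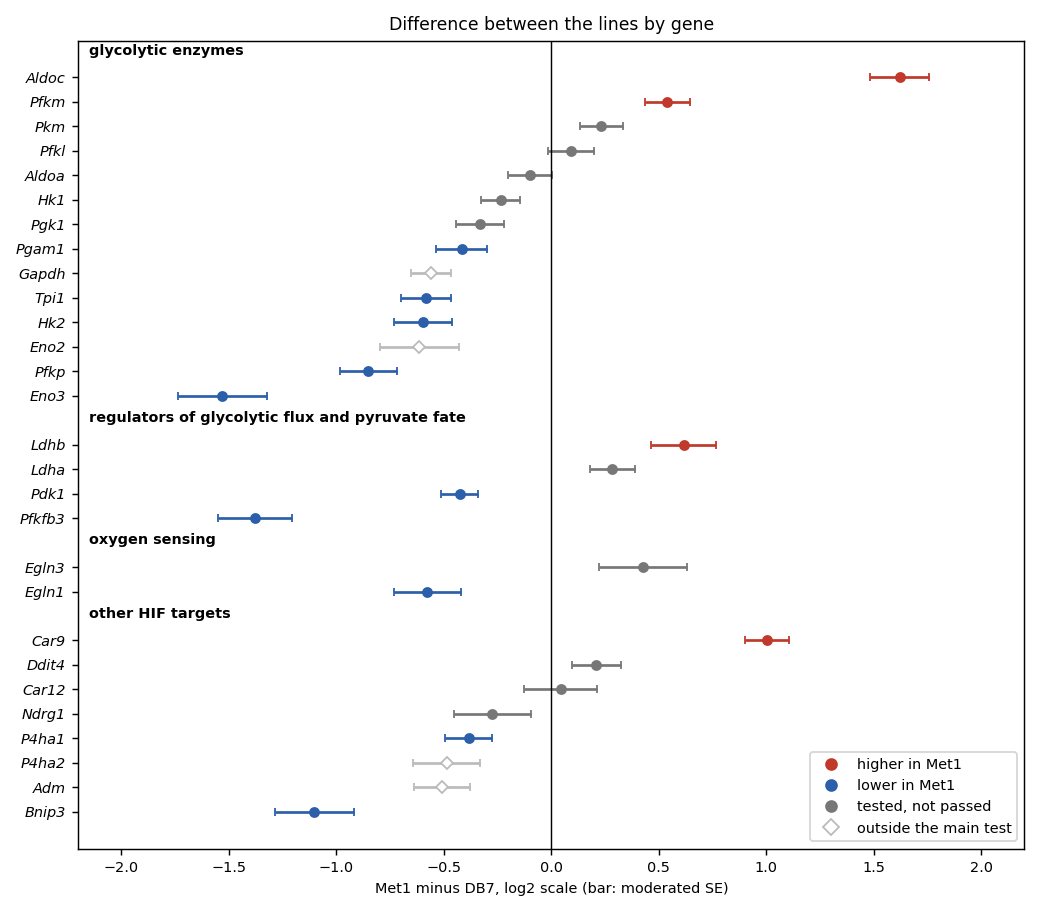
Difference Met1 minus DB7 (x axis, log2 scale) for each of the 28 measured genes (y axis), ordered within its role; points are the gene's shown probe set and bars the moderated standard error. Of the 24 tested genes, 4 lie to the right in red and 10 to the left in blue; the open symbols of Gapdh, Eno2, P4ha2 and Adm, which were outside the test, use the standard error of the fit that kept them.

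The glycolytic enzymes differed in both directions. Of 16 listed, 14 were measured and 12 tested: Aldoc and Pfkm were higher in Met1, and Eno3, Pfkp, Hk2, Tpi1 and Pgam1 lower, with a median difference of -0.28. Of the 12, 16.7% were thus higher and 41.7% lower, against 13% and 17.9% of all tested genes. Aldoc, the brain-type aldolase that splits fructose 1,6-bisphosphate, stood farthest above. It measured 12.06, 11.91 and 11.56 on the Met1 arrays and 10.17, 10.48, 10.13 and 10.11 on the DB7 arrays. Every Met1 array was far above every DB7 array, and the difference was 1.62 (SE 0.14; adjusted p = 5.89e-05), or 3.07-fold. Its second probe set gave 5.03-fold, but it passed the filter only through Met1, so the filter favours it. The DB7 values of that probe set, 5.36 to 5.71, lie below the array median, so the size of that fold is approximate. Pfkm, the muscle-type phosphofructokinase of the committed step, measured 8.94, 8.56 and 8.66 in Met1 and 8.20, 8.10, 8.12 and 8.30 in DB7. Its groups did not overlap either, with a difference of 0.54 (SE 0.11; adjusted p = 0.00514).

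Eno3, the muscle-type enolase, had the largest deficit in Met1. Its values were 6.44, 6.23 and 6.26 in Met1 and 7.57, 7.64, 7.66 and 8.49 in DB7, a 2.89-fold difference (log2 difference -1.53, SE 0.21; adjusted p = 0.00076). The array DB7 4 stood apart on the high side, and all Met1 arrays were below the array median. Skeletal muscle markers were low in both groups: 12 of 14 lay below the array median on all 7 arrays. The mean of that list ranged from 5.09 to 5.21 in Met1 and from 5.09 to 5.27 in DB7, and Mb, myoglobin, was the only member to pass, higher in Met1 (0.52, adjusted p = 0.0101) and tested only through its Met1 values.

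Pfkp, the platelet-type phosphofructokinase, measured 9.01, 9.05 and 8.91 in Met1 and 9.62, 10.01, 10.10 and 9.65 in DB7. The Met1 arrays were tightly grouped below all DB7 arrays (difference -0.85, SE 0.13; adjusted p = 0.00155), and the second probe set was also lower, by 0.64 (adjusted p = 0.0167). Hk2, the inducible hexokinase that traps glucose in the cell, measured 8.65, 8.57 and 8.26 in Met1 and 8.79, 9.18, 9.25 and 9.15 in DB7. DB7 1 came closest to Met1, and the difference was -0.60 (SE 0.14; adjusted p = 0.00994).

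Tpi1, triose phosphate isomerase, measured 11.20, 11.08 and 10.73 in Met1 and 11.47, 11.71, 11.60 and 11.56 in DB7. All 3 of its probe sets were lower in Met1, by 0.49 to 0.58, and the brightest gave an adjusted p of 0.00546. Pgam1, phosphoglycerate mutase, was lower by 0.42 (SE 0.12; adjusted p = 0.025), with values of 9.53, 9.55 and 9.31 in Met1 and 9.62, 9.98, 9.92 and 10.00 in DB7. The gap between Met1 2 and DB7 1 was narrow, and the Pgam1 call was lost without Met1 1 (adjusted p = 0.0566), Met1 2 (0.0529), Met1 3 (0.111), DB7 2 (0.0538), DB7 3 (0.0594) or DB7 4 (0.057).

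Gapdh, glyceraldehyde-3-phosphate dehydrogenase, is often taken as a constant reference, and here only its control probe sets were members. The middle one measured 12.90, 12.82 and 12.54 in Met1 and 13.26, 13.36, 13.40 and 13.23 in DB7. All Met1 arrays were below all DB7 arrays, with a difference of -0.56, or 1.47-fold. The 5′ and 3′ control probe sets differed by -0.47 and -0.49, and each of the 3 gave an exact permutation p of 0.0286 (two-sided), the smallest that 3 against 4 arrays allow. The 3′ minus 5′ value, a sign of RNA integrity, was -0.28 ± 0.05 in Met1 and -0.25 ± 0.06 in DB7 (SD, n = 3 and 4; exact permutation p = 0.514).

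The other tested enzymes did not pass with their representative probe set. Pgk1, phosphoglycerate kinase, sat at the threshold: 12.10, 12.17 and 11.93 in Met1 against 12.17, 12.52, 12.58 and 12.31 in DB7 (difference -0.33, SE 0.11; adjusted p = 0.05). The Pgk1 call appeared without DB7 1 (adjusted p = 0.0147). The brightest and dimmest Pgk1 probe sets are of a type open to signal from related sequences. Without probe sets of that type the gene was called lower (limma, adjusted p = 0.00861). Its second probe set was lower in Met1 (difference -0.46, adjusted p = 0.00888) and its dimmest did not pass (-0.25, adjusted p = 0.137). Hk1, the widely expressed hexokinase, showed the same split, with -0.24 (adjusted p = 0.0822) for the brighter probe set and -0.53 (adjusted p = 0.0164) for the other, and the brighter one passed without DB7 2 (Hk1, 0.0481). Pkm, pyruvate kinase, differed by 0.23 (SE 0.10; adjusted p = 0.105), with overlapping groups. Pfkl, the liver-type phosphofructokinase, differed by 0.09 (SE 0.11) and Aldoa, the main muscle-type aldolase, by -0.10 (SE 0.10). The 4 Aldoa probe sets lay between -0.21 and -0.10 and are all of a type open to signal from related sequences. Eno2, the neuronal enolase, did not pass the filter and measured 5.76, 5.49 and 5.22 in Met1 and 6.13, 6.55, 5.94 and 5.80 in DB7, a narrow separation.

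**Figure D2:**
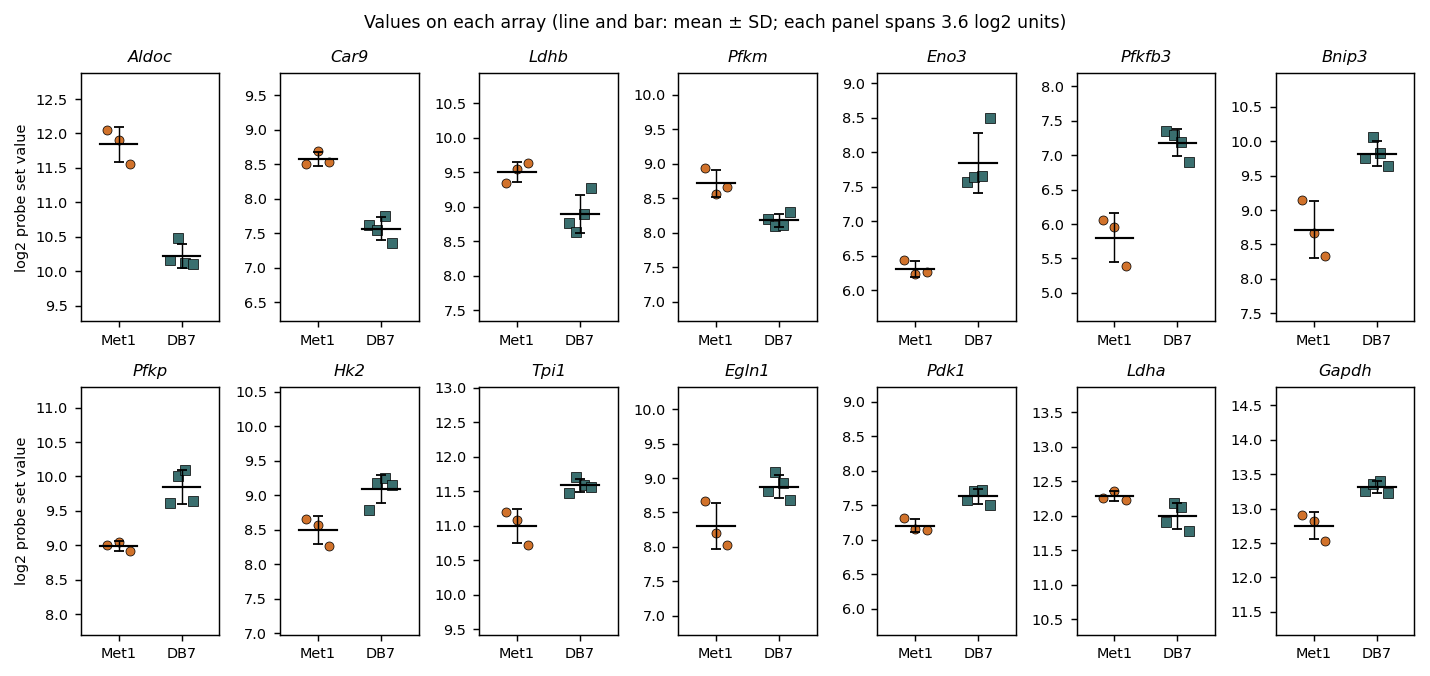
Log2 probe set level (y axis) on each Met1 array (circles) and DB7 array (squares) for 14 genes, with the group mean and SD; every panel spans the same number of log2 units. Aldoc, Car9, Ldhb and Pfkm stand higher in Met1, Ldha is higher without passing the test, Gapdh is a control probe set outside the test, and the other genes stand lower in Met1.

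Isoforms of the same step were compared in 6 pairs, none of which passed the threshold after adjustment. Within each array, Pfkm minus Pfkp was -0.07, -0.49 and -0.25 in Met1 and -1.42, -1.91, -1.98 and -1.35 in DB7, a shift of 1.39 in favour of Pfkm in Met1. The level gap between probe sets has no meaning of its own, but the groups did not overlap in it. Aldoc minus Aldoa shifted by 1.72 and Pfkl minus Pfkp by 0.94, also without overlap. Each of these 3 pairs had an exact permutation p of 0.0286 (two-sided, the smallest possible), and 0.0571 adjusted over the 6 pairs, which is above the threshold. With only 3 of 6 pairs at the smallest possible p, none can pass after adjustment, so the adjusted values decide nothing here. Pfkm minus Pfkl shifted by 0.45 (exact p = 0.0857, adjusted 0.129), Hk1 minus Hk2 by 0.36 (exact p = 0.2, adjusted 0.24) and Ldhb minus Ldha by 0.33 (exact p = 0.286, adjusted 0.286), all with overlapping groups. The genes of these pairs were chosen with their single differences known, and the phosphofructokinase pairs share genes. The pairs are therefore no evidence beyond the single differences.

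**Figure D3:**
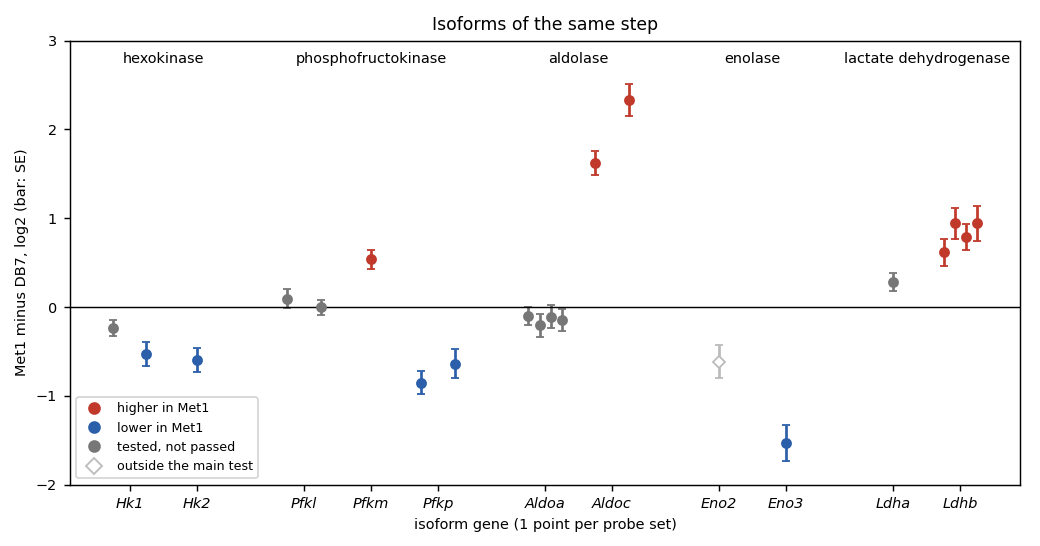
Difference Met1 minus DB7 (y axis, log2 scale; bars are standard errors) for every probe set of the isoform genes of 5 glycolytic steps (x axis, 1 point per probe set). Pfkm and Pfkp lie on opposite sides of 0, both Aldoc probe sets lie above the 4 of Aldoa, and all 4 Ldhb probe sets lie above 0.

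Regulators of flux and of pyruvate's fate also split. Of 5 listed, 4 were measured and tested: Ldhb was higher in Met1, Pfkfb3 and Pdk1 were lower and Ldha did not pass, with a median difference of -0.07. Of these 4, 25% were higher and 50% lower, against 13% and 17.9% of all tested genes. Pfkfb3 makes fructose 2,6-bisphosphate, the activator of phosphofructokinase. It measured 6.05, 5.96 and 5.39 in Met1 and 7.34, 7.30, 7.18 and 6.90 in DB7, a 2.6-fold difference (log2 difference -1.38, SE 0.17; adjusted p = 0.000466). All Met1 values lay below the array median, and its second, untested probe set differed by -0.40. Pdk1, the hypoxia-induced pyruvate dehydrogenase kinase, measured 7.31, 7.15 and 7.15 in Met1 and 7.57, 7.72, 7.73 and 7.50 in DB7. The groups were apart by a small margin (difference -0.43, SE 0.09; adjusted p = 0.00576).

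Ldhb, the heart-type lactate dehydrogenase, was higher in Met1 with all 4 of its probe sets, by 0.62 to 0.95. The brightest measured 9.35, 9.56 and 9.63 in Met1 and 8.76, 8.64, 8.90 and 9.28 in DB7, where DB7 4 nearly reached Met1 (difference 0.62, SE 0.15; adjusted p = 0.0138). That Ldhb call was lost without Met1 2 (adjusted p = 0.0583) or Met1 3 (0.0641). Ldha, the muscle-type enzyme that is a classical HIF target, measured 12.26, 12.36 and 12.22 in Met1 and 11.91, 12.19, 12.12 and 11.78 in DB7. All Met1 arrays were above all DB7 arrays, but the difference of 0.28 (SE 0.10) did not pass (adjusted p = 0.0703); it did without DB7 2 (Ldha, 0.0356).

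The oxygen sensors are the prolyl hydroxylases Egln1 and Egln3, both measured. Egln1, the main sensor that marks HIF-1 alpha, measured 8.67, 8.20 and 8.03 in Met1 and 8.81, 9.09, 8.92 and 8.69 in DB7. Met1 1 lay just under DB7 4, and the difference was -0.58 (SE 0.16; adjusted p = 0.0229). Leaving out Met1 2 (adjusted p = 0.0926), Met1 3 (0.1), DB7 2 (0.0534) or DB7 3 (0.057) ended the Egln1 call, and the second probe set did not pass (-0.47, adjusted p = 0.0541). Egln3, an isoform strongly induced by hypoxia, measured 10.93, 10.35 and 10.29 in Met1 and 9.99, 10.57, 9.98 and 9.84 in DB7. DB7 2 lay inside the Met1 range, and Egln3 did not pass (difference 0.42, SE 0.21, adjusted p = 0.152), though it did without DB7 2 (0.0372). The second Egln3 probe set did not pass either (0.71, limma, adjusted p = 0.0607), but there all Met1 arrays were above all DB7 arrays.

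Among the other HIF targets, Car9 stood opposite to Bnip3. Car9, the carbonic anhydrase on the cell surface that is widely used as a marker of hypoxia, measured 8.50, 8.69 and 8.53 in Met1 and 7.62, 7.56, 7.75 and 7.36 in DB7. Every Met1 array exceeded every DB7 array, by 1.00 on average (SE 0.10; adjusted p = 0.000174), or 2-fold. Bnip3, a mitochondrial protein that promotes mitophagy under hypoxia, measured 9.15, 8.67 and 8.33 in Met1 and 9.75, 10.07, 9.82 and 9.63 in DB7. It was lower on all Met1 arrays, with a wide Met1 spread, and the difference was -1.10 (SE 0.18; adjusted p = 0.00223), or 2.15-fold. The promoters of both genes, shown above, hold ACGTG matches.

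P4ha1, a subunit of the collagen prolyl hydroxylase, was lower in Met1 by 0.38 (SE 0.11; adjusted p = 0.028), with values of 7.57, 7.64 and 7.37 against 7.85, 7.70, 8.05 and 8.04. Met1 2 and DB7 2 were nearly level, and the P4ha1 call was lost without Met1 1 (adjusted p = 0.0661), Met1 3 (0.126), DB7 3 (0.071) or DB7 4 (0.0651). Ndrg1, a stress-induced gene, had 5 probe sets between -0.35 and -0.23, none of which passed. Car12, a second surface carbonic anhydrase, differed by 0.04 (SE 0.17; adjusted p = 0.869), and the sign of that difference turned in 5 alternatives. Of these 5, the fit with the replicate number as a block and the fit without DB7 4 gave the same difference. Ddit4, an inhibitor of mTOR signalling, differed by 0.21 (SE 0.11; adjusted p = 0.201). Thus of 9 listed, 8 measured and 6 tested, 1 was higher and 2 lower. These are 16.7% and 33.3%, where 13% and 17.9% of all tested genes were.

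Adm and P4ha2 did not pass the filter. Adm, the peptide hormone adrenomedullin, measured 6.02, 6.31 and 6.19 in Met1 and 7.01, 6.49, 6.64 and 6.57 in DB7, without overlap, and P4ha2 differed by -0.49. When the filter was dropped, Adm (difference -0.51, SE 0.13; limma, adjusted p = 0.0259) and Eno2 (difference -0.61, SE 0.18; limma, adjusted p = 0.0477) joined the lower genes and P4ha2 did not pass (adjusted p = 0.0618). Values this low can understate differences.

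The 24 tested genes also varied in order among arrays of a line. Met1 3 was the lowest Met1 array in 19 of the 24 genes and Met1 1 the highest in 13. The mean over the 10 lower genes was 8.36, 8.21 and 7.97 on the Met1 arrays and 8.84, 9.04, 9.02 and 8.96 on the DB7 arrays, so that Met1 1 came closest to DB7. Over the 4 higher genes the means were 9.71, 9.68 and 9.60 in Met1 and 8.69 to 8.76 in DB7, a far smaller spread within a line than between the lines, although both sets were chosen by their calls. In DB7, DB7 4 was the lowest array in 13 genes and DB7 1 in 7, whereas DB7 3 was lowest in 0. DB7 1 and DB7 4 were also the DB7 arrays with the highest mean of fibroblast and matrix markers, 9.68 and 9.10 against 8.48 in DB7 2 and 8.17 in DB7 3. They were highest in B and plasma cell markers too (7.13 and 7.40 against at most 6.20), and in macrophage (9.19 and 8.87 against 8.22 and 8.37), endothelial (7.18 and 6.86 against 6.49 and 6.45), T and NK cell (6.35 and 6.23 against 6.02 and 6.21) and adipocyte markers (7.21 and 6.47 against 6.19 and 5.91). The same 2 arrays were highest in luminal epithelial (8.73 and 8.66 against 8.57 and 8.59) and basal markers (6.74 and 6.79 against 6.62 and 6.67). Proliferation markers were lowest in DB7 1 (8.32) and highest in DB7 4 (8.67). The part of any of these cells in the order of the arrays was not tested. Without DB7 1 and DB7 4, 4 member genes were higher and 8 lower of the 22 then tested. The shares over all 7255 genes of that fit are not given here. These counts therefore do not show whether the members still differed from all genes.

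**Figure D4:**
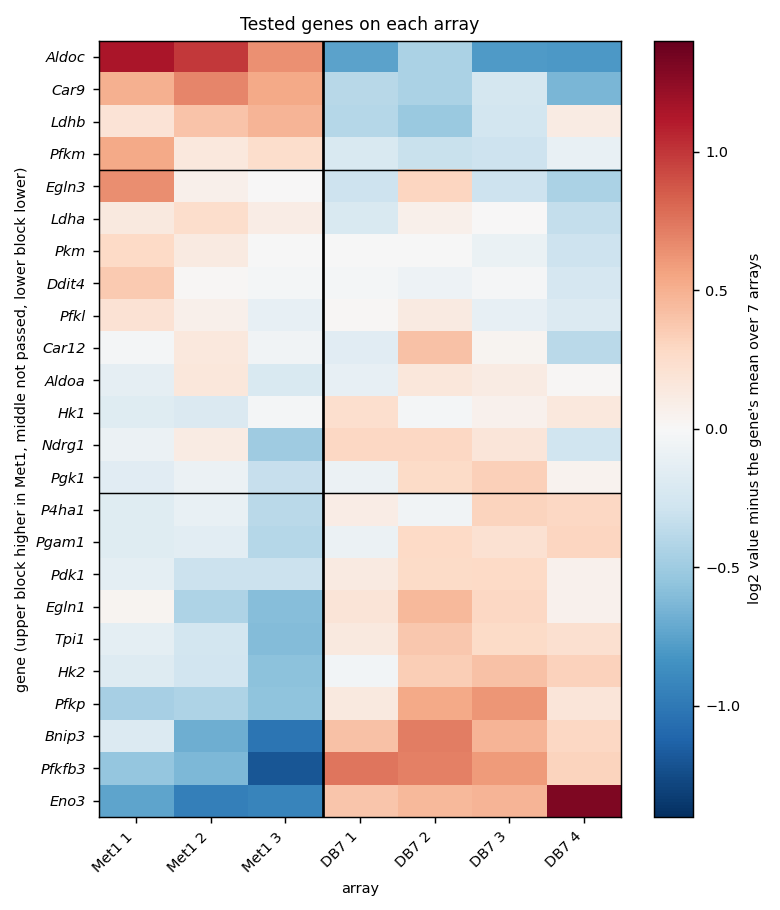
Log2 value minus the gene's mean over all 7 arrays (colour) for the 24 tested genes (y axis, in blocks of genes higher in Met1, not passed and lower in Met1) on each array (x axis). The genes were sorted by their difference, so the blocks show the calls themselves; Met1 3 is the lowest Met1 array in 19 of the 24 genes.

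Markers of cell types were also compared between the lines. Of 13 tested markers of proliferating cells, 13 were lower in Met1 (Aurkb passed the filter only through DB7). Their list means were 7.53 to 7.55 in Met1 and 8.32 to 8.67 in DB7. Over all tested genes 13% were higher and 17.9% lower. For fibroblast and matrix markers the ranges overlapped, at 9.01 to 9.61 in Met1 and 8.17 to 9.68 in DB7, and 0 of 11 tested passed in limma (3 at an unadjusted p under 0.05). Macrophage markers ranged from 8.75 to 9.14 in Met1 and from 8.22 to 9.19 in DB7, with 1 of 11 higher. Endothelial markers ranged from 6.70 to 6.95 and from 6.45 to 7.18, with 0 of 7 passing in limma (0 at an unadjusted p under 0.05). Basal and myoepithelial markers were at 7.03 to 7.19 in Met1 and 6.62 to 6.79 in DB7, with 3 of 5 tested higher. Of these, Lamb3 passed the filter only through Met1, and Krt14, Krt17, Trp63, Myh11 and Cnn1 lay below the array median on all arrays. Luminal epithelial markers, which a mammary tumour should carry, had list means of 8.72 to 8.99 in Met1 and 8.57 to 8.73 in DB7, above the array medians, and of 12 tested 4 were higher and 6 lower. Cldn7 and Muc1, both higher, passed the filter only through Met1, and Foxa1, lower, only through DB7. The neutrophil list did not overlap, at 7.20 to 7.27 in Met1 and 6.51 to 6.74 in DB7, where Ltf, also a milk protein, was higher by 4.47, and the other tested members, Elane and Csf3r, did not pass (0.05 and 0.07). B and plasma cell markers ranged from 5.85 to 6.02 in Met1 and up to 7.40 in DB7, with an overlap, and 0 of 2 tested passed in limma. T and NK cell markers ranged from 5.96 to 6.12 and from 6.02 to 6.35. Of 3 tested, 1 was lower in Met1 (Cd3d, -0.42, limma, adjusted p = 0.0466). Adipocyte markers ranged from 5.92 to 7.08 and from 5.91 to 7.21, with 0 of 4 tested passing in limma. The part of any of these in the differences of glycolysis genes was not tested.

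The neighbouring pathways were read from lists of further genes. Of 10 glucose and lactate transporters, 9 were measured, 5 tested and 0 passed in limma, also 0 at an unadjusted p under 0.05. Their median difference was -0.22, and over all tested genes 13% were higher and 17.9% lower. Slc2a1, the glucose transporter GLUT1, differed by -0.28 (SE 0.15; adjusted p = 0.175) and passed, lower, without Met1 1 (Slc2a1, 0.0435). Bsg, the chaperone of lactate transporters, and Slc16a3, the lactate exporter MCT4, both differed by -0.22 (adjusted p = 0.218 and 0.285).

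Of 16 HIF factors and genes of their oxygen-dependent control, 11 were tested, with 2 higher and 4 lower in Met1, or 18.2% and 36.4% where 13% and 17.9% of all tested genes were. Hif1a, the oxygen-regulated HIF subunit, was higher by 0.58 (SE 0.10; adjusted p = 0.00329), while its other probe set gave 0.24 and did not pass (adjusted p = 0.101). Cited2, which competes with HIF for the coactivator p300, was higher by 0.92 (SE 0.14; adjusted p = 0.00132), while its other probe set gave 0.54 and did not pass (adjusted p = 0.08). Arnt, the constant partner of HIF-1 alpha, was lower by 0.43 (adjusted p = 0.00524), but it passed the filter only through DB7. Elob, an elongin subunit of the VHL ligase, and its partner Eloc were lower by 0.35 and 0.42, and the second Elob probe set did not pass (-0.25, adjusted p = 0.057). Siah2, a ligase that degrades prolyl hydroxylases, was lower by 0.50. Without Met1 2 or Met1 3 only 2 of these genes were lower: Siah2 was lost with adjusted p of 0.068 and 0.084 and Eloc with 0.0727 and 0.0644. The Eloc call was also lost without Met1 1 (adjusted p = 0.11) and without DB7 3 (0.0677). Vhl itself, the recognition subunit of that ligase, differed by -0.02 (adjusted p = 0.903).

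Further hypoxia-induced genes numbered 34, of which 28 were tested, with 5 higher and 7 lower and a median difference of -0.09. These are 17.9% and 25%, near the 13% and 17.9% over all tested genes. Plod2, the lysyl hydroxylase that shapes collagen crosslinks, was 2.26-fold lower in Met1 (difference -1.18, SE 0.10; adjusted p = 5.21e-05). Ero1a, the oxidase of disulphide formation, was 2.7-fold lower (difference -1.43, SE 0.20; adjusted p = 0.000859), and Kdm3a, a histone demethylase, 1.52-fold lower (adjusted p = 0.00114). Higd1a, Vegfa, Tfrc and Bhlhe40 were lower by 0.49 to 1.00. Selenbp1, Nampt, Rora, Plod1 and Lox were higher by 0.60 to 0.94, although the second probe set of Selenbp1 did not pass (0.43, adjusted p = 0.0533). The fits without 1 array gave 4 to 8 higher and 5 to 9 lower genes, with 8 higher without DB7 1. Leaving out Met1 2 (adjusted p = 0.0847), Met1 3 (0.0968), DB7 2 (0.0553) or DB7 3 (0.056) ended the call of Vegfa, the vascular growth factor. The same omissions ended that of Bhlhe40, a transcriptional repressor (0.0939, 0.117, 0.0511 and 0.0773). Lox, lysyl oxidase, kept its call only without DB7 1; leaving out any other single array gave adjusted p of 0.0596 (Met1 1) to 0.162 (Met1 3).

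The pyruvate dehydrogenase route to the mitochondria was represented by 15 genes, 8 of them tested. In limma 0 were higher (also 0 at an unadjusted p under 0.05) and 4, or 50%, lower. Over all tested genes 13% were higher and 17.9% lower. Mpc1, a subunit of the mitochondrial pyruvate carrier, was lower by 0.90 (SE 0.15; adjusted p = 0.00196), and Dlat, the transacetylase of the complex, by 0.61 (SE 0.09; adjusted p = 0.000997). Pdk3, another kinase of the complex, and Pdhb, a subunit of its first enzyme, were lower by 0.30 and 0.25. Pdha1, another subunit of that enzyme, did not pass (-0.19, limma, adjusted p = 0.174), but its second probe set was lower (-0.55, adjusted p = 0.0103). Pdk3 was lost without Met1 1 (adjusted p = 0.0647), Met1 2 (0.0838), Met1 3 (0.125), DB7 2 (0.051) or DB7 3 (0.0719), and Pdhb without the same arrays (0.107, 0.123, 0.147, 0.0712 and 0.102), which left 2 lower genes. Median centring of the arrays also ended the calls of Pdk3 and Pdhb (limma, adjusted p = 0.0611 and 0.0899). Without DB7 2, 1 gene of the list was higher.

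In the pentose phosphate pathway, which branches from glucose 6-phosphate, 6 of 9 genes were tested and their median difference was 0.02. Pgd, the phosphogluconate dehydrogenase that yields NADPH, was 2.33-fold higher in Met1 (difference 1.22, SE 0.12; adjusted p = 0.000118). Pgls, the lactonase before it, was lower by 0.30 (adjusted p = 0.0229), a call lost without Met1 2 (Pgls, 0.0956) or Met1 3 (0.0949). Rpe, an epimerase of the pathway, differed by 0.42 (adjusted p = 0.0897) and passed without DB7 2 (0.0288), while its second probe set was higher by 0.75 (adjusted p = 0.0136). Tkt and Taldo1, of the non-oxidative arm, differed by 0.03 and 0.01.

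Of 26 genes of gluconeogenesis, glycogen and other hexose use, 16 were tested, with 1 higher and 4 lower, or 6.25% and 25% against 13% and 17.9% of all tested genes. Gfpt1, which opens the hexosamine pathway, was 2.04-fold lower in Met1 (difference -1.03, SE 0.10; adjusted p = 0.000137). Gpd2, the mitochondrial glycerol phosphate dehydrogenase, was lower by 0.73 (SE 0.11; adjusted p = 0.0012). Pygb, the brain-type glycogen phosphorylase, was higher by 0.46 (SE 0.09; adjusted p = 0.00523), and without DB7 4 there were 3 higher genes in the list. Bpgm and Pgm2 were lower by 0.46 and 0.36, the second Bpgm probe set did not pass (-0.18, adjusted p = 0.165), and Pgm2 was lost without Met1 1 (adjusted p = 0.0846), Met1 2 (0.0808), Met1 3 (0.105), DB7 2 (0.0547) or DB7 4 (0.0526).

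**Figure D5:**
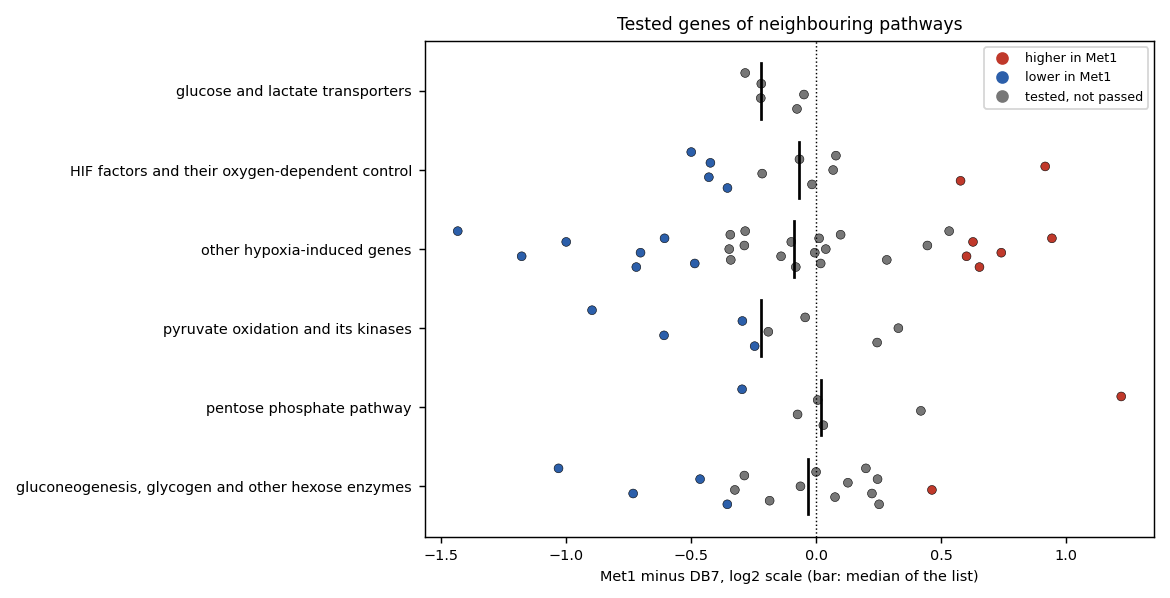
Difference Met1 minus DB7 (x axis, log2 scale) of each tested gene (points, spread vertically only to keep them apart) in 6 lists of genes beside the main group (y axis), with the list's median as a bar. No transporter is coloured as called, Pgd lies alone on the right of the pentose phosphate list, and Ero1a lies farthest to the left among the hypoxia-induced genes.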

How the data were processed

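Total RNA of Met1 and DB7 tumours was biotin-labelled and measured on 1-colour Affymetrix arrays (3 Met1 and 4 DB7), per the labels. Judged by its range, the deposited table holds log2 values, 1 per probe set. Per the submitters' processing notes RMA and MAS5 were used, but not for which step, and no source used here states the log base. The array medians of the deposited log2 values lay between 6.53 and 6.61, so they were used as deposited. The number of arrays limits the precision.

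Controls (64 probe sets) were not tested. Of 22626 others, 20380 had 1 symbol in GEO's platform annotation, 691 several and 1555 none. Those over the array median on 3 or more of 7 arrays (11704, for 7482 genes) were fitted with limma 3.58.1 in R 4.3.3 (two-sided lmFit and trended eBayes on group alone), adjusted by Benjamini-Hochberg over all of them at a threshold of 0.05. Single values were compared by exact permutation over the 35 divisions of the arrays. The fit was tested on simulated data.

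Members, lists and alternatives were chosen with earlier results of these data known. Each member was named. Of each pathway list the 3 genes with the smallest p were named. Other called genes, as well as Vhl, Tkt, Taldo1, Pdha1 and the single cell type markers, were named after their values were seen. Leaving out DB7 1 and DB7 4 together and keeping the Gapdh controls were added after seeing the data.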

Additional observations from a re-analysis of the deposited data

Results flagged for a closer look

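In 4 of 61 genes examined, the highest or lowest of the 4 DB7 arrays stood apart from the other DB7 arrays: its gap to the nearest array, divided by the group's range, exceeded Dixon's critical value. Chance alone flags about 1 in 20 groups. Aldoc measured 10.48 in DB7 2, with 10.17 nearest and 10.11 farthest (gap over range 0.842), and without that array its difference was 1.71 (limma, adjusted p = 0.000134). Eno3 measured 8.49 in DB7 4, where the other DB7 arrays lay between 7.57 and 7.66 (0.909), and without DB7 4 its difference was -1.31 (limma, adjusted p = 6.67e-05). Siah2 measured 8.35 in DB7 2, against 7.84 to 7.92 (0.84), and differed by -0.38 without it (limma, adjusted p = 0.0122). Pygb was low in DB7 3 at 8.41, against 8.54 to 8.55 (0.915), and differed by 0.43 without it (limma, adjusted p = 0.0166). Each of these calls kept its direction and stayed past the threshold without the array in question.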

How the results depend on the processing

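Of the 14 called member genes, 9 kept direction and call in every alternative that could be fitted for them (Eno3 and Pfkfb3 were not tested under the stricter filter or without DB7 1 and DB7 4). Ldhb, Egln1, Pgam1 and P4ha1 lost theirs without single arrays, as given above, and Hk2 with the replicate block (adjusted p = 0.0562). Over all alternatives, 3 to 6 member genes were higher and 7 to 12 lower, counts not set beside those over all genes of each fit. With 1 array left out, lower member probe sets numbered 8 to 17, all tested probe sets higher 1006 to 1593 and lower 1266 to 2193. With the replicate number as a block (replicate block), 4 member genes were higher and 7 lower; Pgam1 (0.083) and P4ha1 (0.124) were lost too, and all probe sets numbered 1315 and 1488. DB7 4 has no Met1 array of its number, so each difference under the block equals that without DB7 4. Same-numbered arrays did not deviate together (correlations -0.17, -0.05 and 0.02), so the numbers were not taken as pairs. Median centring gave 1775 higher and 1690 lower probe sets in place of 1566 and 2060, with 4 and 10 member genes as before. With Gapdh kept in the test, its probe sets were lower (adjusted p = 0.000874 to 0.00282). Car12 (0.04), never called, was -0.075 with the replicate block, -0.20 without DB7 1 and DB7 4, and -0.075 to 0.19 with 1 array left out, below 0 without DB7 1 (-0.0027), DB7 4 or Met1 2 (-0.02). Pgk1, not called above, passed in 6 alternatives, Ldha in 3, Hk1 in 2 and Egln3 in 1. The causes were not tested.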
